A study of Chenopodium quinoa with 24 samples.

Results

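The HSP70 chaperones of the cytosol, plastid and mitochondrion, with the related HSP110, were followed in quinoa leaves through every copy in the transcript table whose best Arabidopsis match is 1 of 10 loci. The loci are AT5G02500 (HSC70-1), AT5G02490 (HSC70-2), AT3G09440 (HSC70-3), AT3G12580 (HSP70-4) and AT1G16030 (HSP70B) of the cytosol, AT4G24280 (cpHSC70-1) and AT5G49910 (cpHSC70-2) of the plastid, AT4G37910 (mtHSC70-1) and AT5G09590 (mtHSC70-2) of the mitochondrion, and AT1G79930 (HSP70-14), an HSP110. The match alone chose the members: 16 of the 44776 transcripts, which belong to 6 of the 10 loci. No transcript has HSC70-1, HSC70-3, HSP70B or mtHSC70-1 as its best match. Of the 16 members, 13 were tested in at least 1 comparison and 12 in all 6. Symbols and compartments below are those of the Arabidopsis match, not localisations measured in quinoa. The members' protein families in the table hold 27 transcripts, namely these 16 and 11 whose best match is another HSP70 or HSP110 locus, described at the end.

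Leaf RNA came from 24 plants of quinoa accession QQ74, 3 plants for each of 4 treatments on day 1 and on day 11 of a heat treatment given at flowering. By the paper's methods, treatments began at the start of the light period and leaves were collected early in it. The day 1 leaves may therefore have had only hours of heat. In the control the whole plant was kept at 22°C. In HR (heated roots) the roots were warmed to 30°C while the shoots stayed at 22°C. In HS (heated shoots) the shoots were held at 35°C with the roots at 22°C, and HRS combined the 30°C roots with the 35°C shoots. A cool chamber housed the control and HR boxes and a hot chamber the other boxes, with a single wooden box per treatment, so chamber and shoot heating, and box and treatment, cannot be told apart.

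HSP70 proteins bind exposed hydrophobic stretches of unfolded or newly made proteins and release them in a cycle driven by ATP. J-domain proteins bring clients and trigger ATP hydrolysis, and nucleotide exchange factors let ADP and the client go: FES1 proteins and HSP110 in the cytosol, GrpE-type proteins in plastids and mitochondria. Organelle HSP70s also pull imported proteins across the organelle membranes, and heat raises several members of the family in plants. Quinoa is an allotetraploid, so several copies per Arabidopsis locus are usual.

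The table gives an effect b, the mean natural log of the level in treated plants minus the same mean in control plants, with its standard error (SE), from a fit of 6 plants for each treatment and day. Group levels below are geometric means of 3 plants in normalised estimated counts. They were recovered from the fits and put on 1 scale within a day, but not across days. They include the small constant that is added before logs are taken, and they are not divided by transcript length, so levels are compared between groups and not between transcripts. A transcript was called when its adjusted p was under 0.05 in a Wald test. The numbers of calls by limma, which allows for the few plants, are given beside them. All effects of a day share the same 3 control plants.

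The leaf samples carried leaf transcripts. All 18 copies of 4 mesophyll marker loci (Rubisco small subunit, Rubisco activase and light-harvesting proteins) had values. Of 21 copies of marker genes of vein, epidermis, flower and root, 12 had values on day 1 and 10 on day 11. The root marker CASP1 and the flower markers AG and PI had none. The flower marker AP1 had values in all 3 copies, with a summed control level of 522 on day 1 and 1652 on day 11, and AP3 in 3 of 5 copies on day 1 (summed 25.0) and 1 on day 11 (16.0). The vein marker SUC2 and the epidermal KCS10 had values in 3 copies each.

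The mesophyll markers moved with the treatments too. On day 1, 9 of the 18 mesophyll markers were higher in HS and 2 lower, and 6 were higher in HRS and 2 lower. Of all transcripts, 14.1% were higher in each treatment, and 12.3% were lower in HS and 12.5% in HRS. The 2 of 18 lower were thus close to the background share. The summed level of these markers was 702661 in control plants, 1107680 with HS and 968050 with HRS. Of 12 markers of other tissues tested on day 1, 3 were higher in HS (1 AP1 and 2 KCS10 copies) and 0 lower. In HRS 2 were higher (KCS10) and 2 lower (SUC2), close to the background shares of 14.1% and 12.5%. Their summed level was 10864 in control plants, 10570.2 with HS and 8324 with HRS. In HS on day 11, 17 of the 18 mesophyll markers were lower than in control (12 by limma), against 7.49% of all transcripts (2.86% by limma), with a median b of −1.53. In HRS on day 11, 6 were lower (1 by limma), against 6.2% (2.77%), and 1 was higher (0 by limma), against 6.08% (2.78%). On that day their summed level was 1773320 in control and 2298100 in HR plants, against 478685 in HS and 1523640 in HRS plants. Markers of other tissues had 0 calls in either treatment on day 11, and summed to 9964 in control plants, 10721 with HS and 9985 with HRS. The part of these shifts in the effects below was not tested. In bulk leaf tissue, fewer cells of a type and less RNA per cell cannot be told apart.

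On day 1 all 5 plastid HSP70 copies were higher with heated shoots, in HS and in HRS, as were 2 of the 4 mitochondrial copies in HS and 3 in HRS, and with heated roots alone none passed. Both mitochondrial counts include AUR62032879, which was near the limit of detection in control plants. Without that copy, 6 of 12 members were higher in HS on day 1 and 9 of 12 in HRS. In HS on day 1, 7 of the 13 members tested were higher than in control, against 14.1% of all transcripts, and 0 were lower, against 12.3%. By limma 7 were higher too, against 12.1%. In HRS on day 1, 10 of 13 were higher, against 14.1% of all transcripts, and 0 were lower, against 12.5%. By limma 10 were again higher, against 12.2%. On day 11, HS had 5 of 13 higher (background 6.09%), of which limma called 3 (2.09%), and HRS had 3 of 13 higher (6.08%), of which limma called 1 (2.78%). None was lower in either treatment on day 11. Of all transcripts 7.49% were lower in HS and 6.2% in HRS on that day, so 0 of 13 was close to the background share.

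In HR, 0 of 12 members tested passed in either direction on day 1, where 0.567% of all transcripts did, and 0 of 12 on day 11, where 0.879% did. At an unadjusted p under 0.05 there were 3 members on day 1 and 0 on day 11 by the Wald test, and 2 on each day by limma, which called 0 transcripts in HR on either day after adjustment. On day 1 the median b of the 13 members tested was 0.43 with HS and 0.75 with HRS, and that of the 12 tested in HR was −0.076. Over the 12 members tested in all 6 comparisons, the median b was 0.37 with HS and 0.59 with HRS. Over all transcripts tested it was −0.00037 with HS, −0.0044 with HRS and 0.0035 with HR. The mtHSC70-2 copy AUR62032879 was near the limit of detection in control plants, was not tested in HR and enters the other tests through the plants in which it is high. Among the 12 members tested in all 6 comparisons, day 1 had 6 that were higher in HS and 9 in HRS, and day 11 had 4 and 3.

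**Figure D1:**
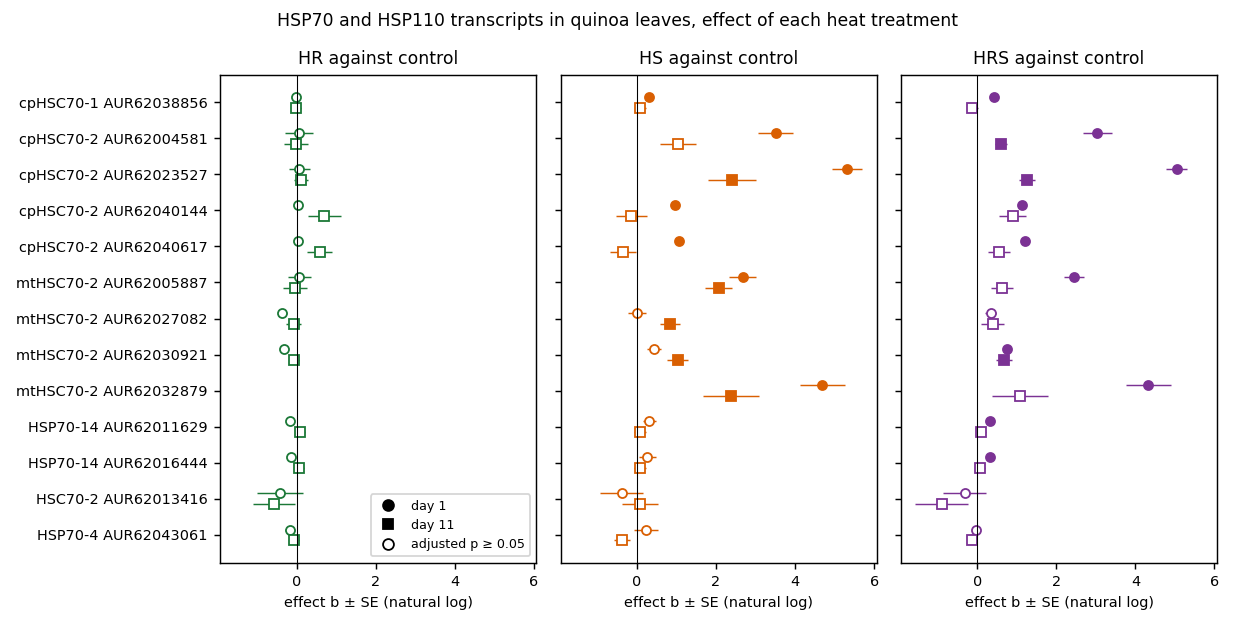
Effect b with its SE (natural log, horizontal axis) of the 13 HSP70 and HSP110 transcripts tested, in HR, HS and HRS against the control of the same day, for day 1 (circles) and day 11 (squares). Filled symbols have an adjusted p under 0.05 in the Wald test, which holds for 7 circles and 5 squares with HS, for 10 circles and 3 squares with HRS and for 0 with HR.

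The steepest rise was in the plastid locus cpHSC70-2, a stromal chaperone that takes part in folding and protein import, which has 4 quinoa copies. Copy AUR62023527 stood at 109 in control and 117 in HR plants, against 22348.5 in HS and 16863 in HRS plants on day 1. Both shoot-heated groups were thus more than 2 orders of magnitude above both groups with cool shoots. The level was 205 times that of control in HS (b 5.32 ± 0.38, Wald adjusted p 3.19e-42, limma 4.68e-05) and 155 times in HRS (b 5.04 ± 0.27, Wald 1.40e-75, limma 2.43e-06). On day 11 the levels were 88.4 in control and 98.1 in HR plants, against 978 in HS and 310.2 in HRS plants. The order of the groups was that of day 1, with smaller gaps: 11.1 times control in HS (b 2.40 ± 0.61, Wald adjusted p 0.0018, limma 0.036) and 3.51 times in HRS (b 1.26 ± 0.20, Wald 9.28e-08, limma 0.019). In HR the effect was 0.069 ± 0.27 on day 1 and 0.10 ± 0.18 on day 11.

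Copy AUR62004581 of the same locus behaved alike on day 1 at a smaller scale. Its levels were 921 in control and 970.3 in HR plants, against 30858 in HS and 19091 in HRS plants, which is 33.5 times control in HS (b 3.51 ± 0.44, Wald adjusted p 9.28e-14, limma 0.00037) and 20.7 times in HRS (b 3.03 ± 0.37, Wald 1.53e-14, limma 0.00018). On day 11 it stood at 903 in control and 890.4 in HR plants, against 2536 in HS and 1636 in HRS plants. Only the HRS rise of 1.81 times passed the Wald test (b 0.59 ± 0.16, adjusted p 0.0028), and it missed the threshold by limma (0.051). The larger HS effect (b 1.03 ± 0.45) had an adjusted p of 0.11, and spread between plants was wider there. The residual standard deviation of single plants was a factor of 1.73 in HS and 1.21 in HRS. Scaled to equal totals, the HS effect of day 11 was 1.27 and passed (adjusted p 0.024).

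The other copies, AUR62040144 and AUR62040617, rose between 2.60 and 3.33 times on day 1. AUR62040144 was at 1578 in control and 1616 in HR plants, against 4096 in HS and 4864 in HRS plants (b 0.95 ± 0.10 in HS and 1.13 ± 0.084 in HRS, limma adjusted p 0.00049 and 5.73e-05). AUR62040617 was at 1740.1, 1792, 5057 and 5788 in the same order (b 1.07 ± 0.10 and 1.20 ± 0.085, limma adjusted p 0.00035 and 7.17e-05). Plants of a group lay close together on day 1, with a residual standard deviation of a factor of 1.12 for AUR62040144 in the HS fit. On day 11 both copies had their highest values in HR and HRS plants, the groups with heated roots, and their lowest in HS plants. AUR62040144 stood at 5095 in control and 10227 in HR plants, against 4418 in HS and 12428 in HRS plants, and AUR62040617 at 5436, 9671, 3836 and 9354. None of these differences passed. The adjusted p of AUR62040144 was 0.57 in HR (b 0.70 ± 0.41) and 0.070 in HRS (b 0.89 ± 0.35), with a residual standard deviation between plants of a factor of 1.65 in HR and 1.53 in HRS. Of AUR62040617, b was 0.58 ± 0.32 in HR, −0.35 ± 0.33 in HS and 0.54 ± 0.28 in HRS.

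Apart from this pair, the HS and HRS effects of the 4 copies on day 1 lay further apart than 1 SE of their difference, while in HR every pair was within 1 SE. In HS, the fold change of AUR62023527 was 6.12 times that of AUR62004581 (difference in b 1.81, SE at most 0.82) and 79.0 times that of AUR62040144 (4.37, SE at most 0.47). AUR62040617 and AUR62040144 differed by 0.11, with an SE of at most 0.20. In HRS on day 1 the corresponding differences were 2.01 (SE at most 0.64), 3.92 (0.35) and 0.076 (0.17). These SEs are upper bounds, since the correlation between copies within a plant is not in the table.

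The single copy of cpHSC70-1, the other stromal HSP70 of Arabidopsis, changed little. AUR62038856 was at 327 in control and 322 in HR plants, against 440.2 in HS and 498 in HRS plants on day 1, a rise of 1.34 times in HS (b 0.30 ± 0.10, Wald adjusted p 0.016, limma 0.041) and 1.52 times in HRS (b 0.42 ± 0.097, Wald 0.00016, limma 0.0099). With totals made equal the HS effect was 0.12 and did not pass (adjusted p 0.39). On day 11 the groups lay between 303 and 374, and no treatment passed.

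**Figure D2:**
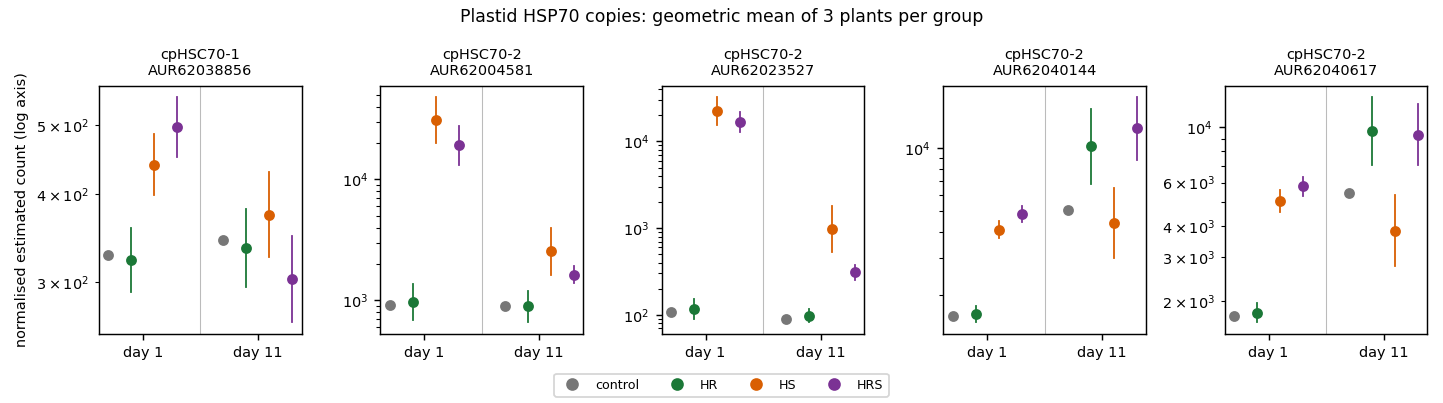
Normalised estimated counts (log axis) of the 5 plastid HSP70 copies in control, HR, HS and HRS plants on days 1 and 11, as geometric means of 3 plants; vertical bars are 1 SE of the difference from control. AUR62023527 goes from 109 in control to 22348.5 in HS on day 1 and from 88.4 to 978 on day 11, while AUR62040144 is highest in HR (10227) and HRS (12428) on day 11. Levels are not on 1 scale across days.

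All 4 mitochondrial members match mtHSC70-2, which drives import into the matrix and folding there. Copy AUR62005887 was at 47.6 in control and 50.6 in HR plants, against 687 in HS and 549 in HRS plants on day 1. Both groups with hot shoots stood far above both groups with cool shoots, by 14.4 times control in HS (b 2.67 ± 0.34, Wald adjusted p 1.99e-13, limma 0.00046) and 11.5 times in HRS (b 2.44 ± 0.25, Wald 1.76e-20, limma 0.00012). On day 11 the level was 34.3 in control and 32.9 in HR plants, against 270.1 in HS and 63.4 in HRS plants. The HS plants were still 7.88 times control (b 2.06 ± 0.34, Wald adjusted p 3.13e-07, limma 0.022), while the HRS effect of 0.62 ± 0.28 did not pass (Wald adjusted p 0.13, limma 0.14).

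Copies AUR62030921 and AUR62027082 had a larger HS effect b on day 11 than on day 1, though the difference between days did not pass (given with the days). AUR62030921 was at 704 in control and 510.4 in HR plants, against 1086 in HS and 1493 in HRS plants on day 1, and at 573, 537, 1596 and 1134 on day 11. Its rise passed in HRS on day 1 (b 0.75 ± 0.11, Wald adjusted p 9.83e-11, limma 0.0012) and in HS on day 11 (b 1.02 ± 0.27, Wald 0.0037, limma 0.044). The HS value of day 1 (0.43 ± 0.18) had an adjusted p of 0.065, and that of HRS on day 11 (0.68 ± 0.20) passed by the Wald test (0.0096) but not by limma (0.054). AUR62027082 was at 331 in control and 230.2 in HR plants, against 332 in HS and 461 in HRS plants on day 1, and at 249, 229.7, 575 and 365 on day 11. It passed only in HS on day 11 (b 0.84 ± 0.26, Wald adjusted p 0.014, limma 0.060), and in HS on day 1 its b was 0.0037 ± 0.23.

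With heated roots alone these copies had values below control on day 1, which did not pass. In HR, b was −0.32 ± 0.092 for AUR62030921 (adjusted p 0.065) and −0.36 ± 0.11 for AUR62027082 (adjusted p 0.098), and limma gave 0.49 and 0.55. Both passed when the totals were made equal, at −0.41 (adjusted p 0.0034) and −0.45 (0.010). On day 11 their HR effects were −0.064 ± 0.12 and −0.082 ± 0.19.

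AUR62032879 was barely present in control leaves, at 0.861 on day 1 and 4.35 on day 11. It reached 93.8 in HS and 65.0 in HRS plants on day 1, and 46.8 and 12.9 on day 11. On day 1 the effect passed in both treatments with hot shoots (b 4.69 ± 0.58 in HS, 4.32 ± 0.57 in HRS, limma adjusted p 0.0010 and 0.0011), and on day 11 it passed in HS by the Wald test (2.38 ± 0.70, adjusted p 0.010, limma 0.057). With the control so close to 0, the size of b depends on the added constant, so no fold is given. In HS on day 1 the effect of AUR62005887 was larger than that of AUR62027082 by 2.67 (SE at most 0.57), which is 14.4 times, and larger than that of AUR62030921 by 2.24 (SE at most 0.52). On day 11 the same differences were 1.23 (0.60) and 1.04 (0.62).

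**Figure D3:**
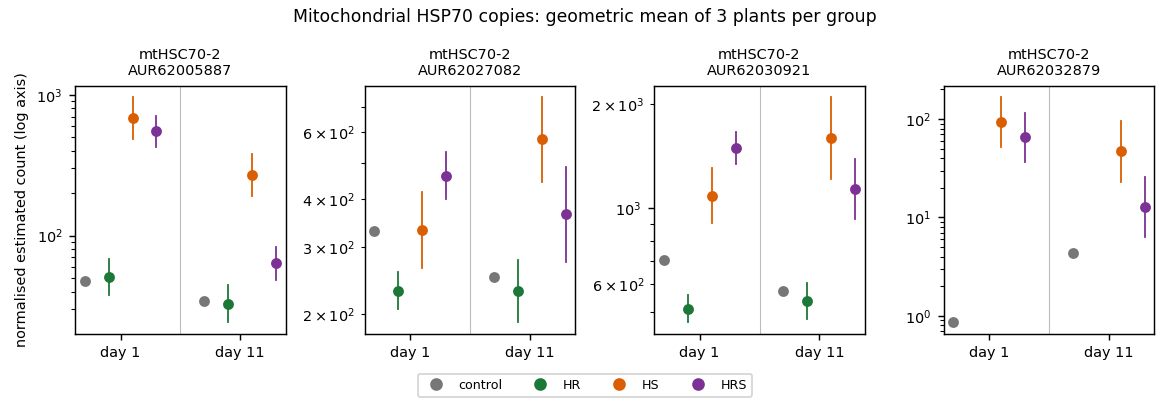
Normalised estimated counts (log axis) of the 4 mtHSC70-2 copies by treatment and day, drawn as for the plastid copies; AUR62032879 has no HR value. AUR62005887 goes from 47.6 in control to 687 in HS on day 1 and from 34.3 to 270.1 on day 11, and AUR62030921 from 704 to 1086 and from 573 to 1596.

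HSP70-14 is an HSP110, which releases ADP from HSP70 and holds unfolded protein. Its copies AUR62011629 and AUR62016444 moved together and little. AUR62011629 was at 1638 in control and 1377 in HR plants, against 2236 in HS and 2276 in HRS plants on day 1, and AUR62016444 at 2329, 2029.8, 3028 and 3241. The rise passed in HRS (b 0.33 ± 0.083 and 0.33 ± 0.084, Wald adjusted p 0.00061 and 0.00067, limma 0.023 for both). It did not in HS, where b was of like size with a wider error (0.31 ± 0.17 and 0.26 ± 0.21). With equal totals the HRS effects were 0.20 for both, with adjusted p of 0.057 for both. On day 11 the copies lay between 1846 and 2027 and between 2610.4 and 2813 over the 4 groups, and no treatment passed.

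The cytosolic loci were thinly covered. HSP70-4, known in Arabidopsis as a heat-induced cytosolic HSP70, has the copy AUR62043061. It was at 4860.1 in control and 4107 in HR plants, against 6123 in HS and 4688 in HRS plants on day 1, and at 5624, 5252, 3868 and 4897 on day 11. The largest difference upward was the HS effect on day 1 (0.23 ± 0.31, Wald adjusted p 0.66, limma 0.53), and the largest downward was in HS on day 11 (−0.37 ± 0.20, Wald 0.21, limma 0.24). Plants were uneven in the HS fit of day 1, with a residual standard deviation of a factor of 1.46, against 1.14 in the HRS fit, where b was −0.036 ± 0.11.

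HSC70-2, a cytosolic HSP70 known as constitutive, has 4 copies, of which AUR62007727, AUR62013409 and AUR62013418 had no values in any comparison. AUR62013416 was low, between 7.39 and 11.3 in the 4 groups on day 1 and between 5.38 and 14.2 on day 11. Its b ranged from −0.90 ± 0.67 in HRS to 0.069 ± 0.45 in HS, both on day 11, and none passed. Its SEs were wider than the effects seen in HSP110, so a change of that size was not detectable at this depth. The table lists the cytosolic members under a name for a Mediator subunit, another name in use for HSP70 proteins. No sequence was at hand to check the matches.

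Effects of heated shoots on most plastid copies were smaller on day 11 than on day 1. In HS, 4 of 13 members had a lower b on day 11, 0 a higher one, against 9.31% of all transcripts with a lower one. They were all cpHSC70-2 copies: AUR62023527 by −2.92 ± 0.71 (adjusted p 0.00092), AUR62004581 by −2.48 ± 0.63 (0.0016), AUR62040617 by −1.42 ± 0.35 (0.00090) and AUR62040144 by −1.10 ± 0.40 (0.042). Limma called 3 of these (background 8.24%) and gave 0.057 for AUR62040144.

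In HRS, 5 of 13 were lower on day 11 and 0 higher, against 4.64% of all transcripts that were lower. The plastid copies AUR62023527, AUR62004581 and AUR62038856 fell by 3.79 ± 0.34, 2.44 ± 0.40 and 0.55 ± 0.17, and the mitochondrial copies AUR62032879 and AUR62005887 by 3.24 ± 0.91 and 1.83 ± 0.37. Limma called 4 (background 3.59%) and gave 0.053 for AUR62032879. That copy was near 0 in control and its b depends on the added constant. Without it, 4 of the 12 members tested in all comparisons were lower by either test. In HR, 0 of 12 differed between days in either direction, where 6 of 29439 transcripts did (0.0204%). At an unadjusted p under 0.05 there were also 0 members, by either test.

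The mitochondrial copies in HS did not fall as a group. The difference between days was −0.60 ± 0.48 for AUR62005887, −2.32 ± 0.91 for AUR62032879 (adjusted p 0.069), 0.59 ± 0.33 for AUR62030921 and 0.83 ± 0.35 for AUR62027082 (adjusted p 0.090), none of which passed. With totals made equal within each comparison, the last pair were higher on day 11 by 1.01 (adjusted p 0.011) and 1.25 (0.0023), and AUR62040144 no longer passed (−0.68, 0.18). This scaling subtracts from each b the natural log ratio of total counts, 0.18 in HS on day 1 and −0.24 on day 11, the day on which the leaf markers were low.

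**Figure D4:**
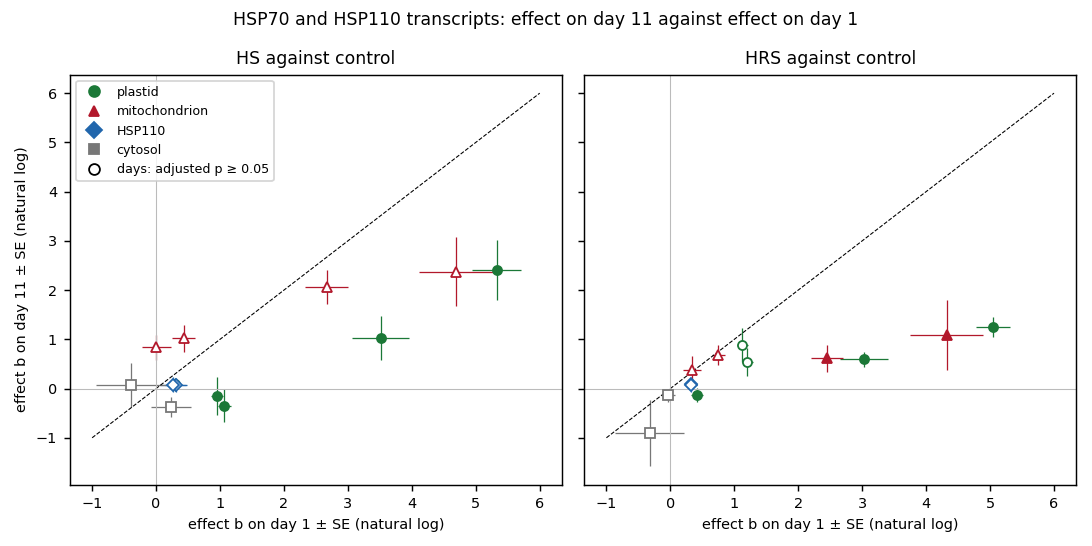
Effect b on day 11 against effect b on day 1, each with its SE (natural log), for the 13 transcripts tested in HS and in HRS; the dashed line marks equal effects and filled symbols have an adjusted p under 0.05 for the difference between days. The 4 cpHSC70-2 copies lie below the line in HS, and 5 copies with filled symbols lie below it in HRS.

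With root heat added to shoot heat, 1 member differed, on day 11. Between HRS and HS on day 1, 0 of 13 members differed in either direction, where 16 of 29988 transcripts did (0.0534%), and 0 members had an unadjusted p under 0.05 by either test. The differences on day 1 ran from −0.48 ± 0.58 in AUR62004581 to 0.33 ± 0.27 in AUR62027082. On day 11 AUR62005887 was lower in HRS than in HS, by 1.45 ± 0.44 (adjusted p 0.033), the only 1 of 13, against 1.02% of all transcripts. Limma, which called 0 transcripts in this comparison, gave it 0.12. The cpHSC70-2 copies AUR62040144 and AUR62040617 had higher values in HRS than in HS on day 11, by 1.03 ± 0.52 and 0.89 ± 0.43, with adjusted p of 0.31 and 0.29, and AUR62023527 a lower one, by −1.15 ± 0.64 (0.39). The SE of these differences is the largest that the residual variances of both fits allow.

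Nucleotide exchange factors rose with heated shoots in nearly every copy on day 1. The list has 10 transcripts (FES1A of the cytosol, CGE1 and CGE2 of the plastid, MGE1 and MGE2 of the mitochondrion). On day 1, 9 were higher with each shoot treatment, by limma too, against 14.1% of all transcripts in each (12.1% and 12.2% by limma). None was lower, where 12.3% of all transcripts were in HS and 12.5% in HRS. The highest b in HS on day 1 was that of a CGE1 copy, AUR62004682 (1.76 ± 0.15, limma adjusted p 0.00012), and the lowest that of an MGE1 copy, AUR62015879 (0.056 ± 0.26). On day 1 the list's median b was 1.22 with HS and 1.38 with HRS. By day 11, 6 were higher in HS and 4 in HRS, against 6.09% and 6.08%, of which limma called 2 and 3 (2.09% and 2.78%). In HR 0 passed on either day.

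Of 21 transcripts of J-domain partners, 10 were higher in HS on day 1 and 12 in HRS, also by limma, against 14.1% of all transcripts in each. In HS 3 were lower (2 by limma), where 12.3% of all transcripts were (10% by limma), so 3 of 21 was close to the background share. In HRS 4 were lower, also by limma, against 12.5% (10.5%). The list's median b was 0.47 with HS and 0.42 with HRS. The highest in HS was a copy of At2g20560, a DnaJ-type protein, AUR62038986 (b 2.45 ± 0.36, limma adjusted p 0.00071). The lowest was a copy of ATJ3, a farnesylated cytosolic J-protein, AUR62004125 (b −0.68 ± 0.089, limma adjusted p 0.00067). The 6 copies of ATJ2 ranged from −0.43 to 1.20 in HS on day 1, with 2 higher and 2 lower, and the 6 copies of the plastid DJA6 from −0.16 to 2.18, with 3 higher. On day 11, 7 were higher in HS and 6 in HRS (5 and 3 by limma), against 6.09% and 6.08% of all transcripts. None was lower, against 7.49% in HS and 6.2% in HRS, and in HR 0 passed.

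Co-chaperones that dock on HSP70 through TPR domains also rose on day 1. Of 6 transcripts, on day 1, 4 were higher in HS and 6 in HRS (4 and 5 by limma), against 14.1% of all transcripts in each, with a median b of 0.58 and 0.71. HOP1, which links HSP70 to HSP90, had the highest b in HS (AUR62007466, 1.00 ± 0.24, limma adjusted p 0.0067), and a copy of CHIP, a U-box ubiquitin ligase, the lowest (AUR62022149, 0.51 ± 0.21, limma 0.071). On day 11, 3 were higher in HS and 0 in HRS, against 6.09% and 6.08%, and limma called 0 in either, where it called 1522 and 1683 transcripts over all. In HR 0 passed on either day.

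Among the 11 transcripts of the remaining HSP70 and HSP110 loci, day 1 had 6 that were higher in HS and 7 in HRS (6 and 8 by limma), against 14.1% of all transcripts in each. None was lower on day 1, where 12.3% of all transcripts were in HS and 12.5% in HRS. The list's median b was 0.91 with HS and 1.24 with HRS. The highest was a copy of BIP2, the HSP70 of the endoplasmic reticulum lumen, AUR62005192, with a day 1 b of 3.93 ± 0.56 in HS and 4.12 ± 0.38 in HRS (limma adjusted p 0.00061 and 4.8e-05). Its HS value on day 11 was 4.56 ± 0.58 (Wald adjusted p 3.18e-12, limma 0.011). The control level of this copy was 29.4 on day 1 and only 4.81 on day 11, so the size of the day 11 b depends on the added constant. The difference between days in HS did not pass (0.63 ± 0.80, Wald adjusted p 0.68). The lowest was an HSP70-16 copy, AUR62021966 (−0.061 ± 0.11). Both copies of HSP70T-2, a truncated HSP70, had b of 3.35 and 3.58 in HS on day 1, and both of HSP70-17, an HSP110 of the endoplasmic reticulum, 0.91 and 1.07. On day 11, 2 were higher in HS and 1 in HRS (2 and 0 by limma), all of BIP2, against 6.09% and 6.08% of all transcripts, and 0 in HR on either day.

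**Figure D5:**
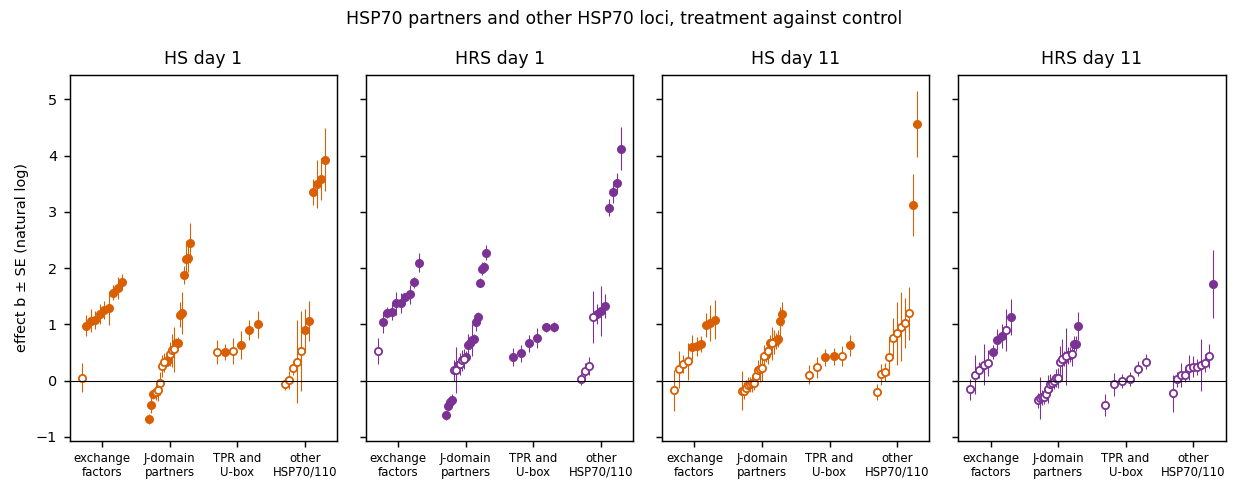
Effect b with its SE (natural log) of the nucleotide exchange factors (10 transcripts), J-domain partners (21), TPR and U-box partners (6) and other HSP70 and HSP110 loci (11) in HS and HRS on days 1 and 11, sorted within each list; filled symbols have an adjusted p under 0.05 in the Wald test. In HS on day 1, 9, 10, 4 and 6 transcripts of the lists were higher, and on day 11, 6, 7, 3 and 2.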

How the data were processed

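The authors trimmed strand-specific paired reads with trimmomatic, pseudoaligned them with kallisto to the quinoa v1.0 transcriptome and compared each treatment with the same-day control in sleuth 0.30.0. Their deposited table holds, per transcript and fit, b and its SE on the natural log scale, variance components, a p-value and a q-value (neither used here), and the best Arabidopsis match. Columns with values of single plants number 0, and the table carries no read totals. Pseudoalignment shares reads between near-identical copies. The table also gives a technical variance of the estimated counts. As a share of members' residual variance, it had medians from 2.44% in HS to 13.4% in HR, both on day 1 (24.4% and 26.3% over all transcripts). How much of it comes from reads shared between copies was not tested. The technical share was above 50% in some members, such as 95.1% for the low copy AUR62013416 in HRS on day 1. The technical variance exceeded the residual variance for AUR62013416 in HR and for AUR62038856 in HRS, both on day 11.

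From b and SE, Wald tests (normal distribution) were computed with Benjamini-Hochberg adjustment over all transcripts tested (30320 to 30731 per fit). Days were compared by the difference of b, with the root of summed squared SEs. HRS was compared with HS likewise, an upper bound. Limma 3.58.1 (R 4.3.3) used b, the residual variances and 4 degrees of freedom per fit with a trend over abundance. Tables were handled in pandas 2.3.3 and numpy 2.4.6 under Python 3.11.15, with scipy 1.17.1 for p-values and matplotlib 3.10.9 for plots. The tests were also run on simulated fits with known effects. Each simulated fit was drawn on its own, so the control plants shared within a day were not part of the simulation.

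Members, lists and the rule for named transcripts were chosen with earlier results of these data known. The rule names every member, and the highest and lowest b in HS on day 1 of each partner list. The partner loci given by the range of their copies were chosen after their values were seen. The alternatives tried were an adjusted p of 0.01, limma, no shrinkage of the residual variance, a filter on abundance, a 2-fold minimum and scalings to the total or the median.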

Additional observations from a re-analysis of the deposited data

Results flagged for a closer look

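The tests between days picked out 9 effects, all smaller on day 11 than on day 1. In HS these were the cpHSC70-2 copies AUR62004581 (−2.48), AUR62023527 (−2.92), AUR62040144 (−1.10) and AUR62040617 (−1.42), given as b on day 11 minus b on day 1. In HRS they were AUR62038856 of cpHSC70-1 (−0.55), AUR62004581 (−2.44) and AUR62023527 (−3.79) of cpHSC70-2, and AUR62005887 (−1.83) and AUR62032879 (−3.24) of mtHSC70-2. Limma's adjusted p missed the threshold for AUR62040144 in HS (0.057) and AUR62032879 in HRS (0.053). The AUR62032879 value rests on control levels of 0.861 and 4.35.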

How the results depend on the processing

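The design had no paired samples, since different plants were sampled for each treatment and day. No plant could be left out, because the table holds no values of single plants. Over all transcripts, the Wald test made more calls than limma in every comparison. At an adjusted p of 0.01, members called in HS on day 11 went from 5 to 3 and those differing between HRS and HS on day 11 from 1 to 0. With limma these counts were 3 and 0, and HRS on day 11 went from 3 to 1. Without shrinkage of the residual variance, HR on day 1 had 2 and HRS on day 11 had 6. A 2-fold minimum left 1 in HRS on day 11. Scaled to the total, HR on day 1 had 2, those differing between days in HS went from 4, all lower, to 5 (3 lower and 2 higher), and 16 uncalled effects changed sign (1 when scaled to the median). The other counts, taken over both directions, stayed within 1.5 times under these alternatives and the abundance filter, which left 119 member results, and no called effect changed sign. The scaling to the total subtracted 0.092, 0.18 and 0.13 from b in HR, HS and HRS on day 1 and 0.086, −0.24 and 0.012 on day 11.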
